A study of Mus musculus with 4 samples.

Results

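Long intergenic RNAs (lincRNAs) are long transcripts that code for no known protein and lie between protein-coding genes. The 93 described here are the rows of the deposited gene count table with the biotype lincRNA and at least 300 reads summed over all 4 libraries, leaving out NEAT1 and PVT1. They are 93 of 7629 lincRNA rows in a table of 58735 rows. Of those lincRNA rows, 5175 had 0 reads in every library and 540 had enough reads to be tested. The members were thus chosen by their summed reads over both groups, so their levels are given as a description, with no test.

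The libraries come from Jurkat cells, an established human line of leukaemic T cells. Of the 4 RNA-seq libraries, 2 are labelled as having MATR3 knocked out by CRISPR-Cas9 and 2 as wild-type, with no other treatment named for either group, and both groups were grown in the same serum-supplemented medium. MATR3 encodes matrin 3, a nuclear matrix protein that binds RNA and DNA. The labels do not say whether the knockout is 1 clone, nor whether the libraries of a group came from separate cultures, so the spread behind the p-values is that between these libraries and could be technical.

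Total counts ran from 15008554 to 17477643 per library. The MATR3 rows of the table overlap each other, hold few reads and so check nothing about the knockout. The tested row (ENSG00000015479) held 42 and 61 reads in the libraries labelled knockout, against 19 and 9 in wild-type, and the second row (ENSG00000280987) held 2 and 2 reads in the libraries labelled knockout, against 5 and 1 in wild-type. Directions below are given for the labels, knockout over wild-type. Marker genes of several cell types differed between the groups. Of 12 T cell markers tested, 11 were lower and 0 higher, with summed levels in CPM (a gene's reads scaled to a common library total) of 1413 and 1379 in the libraries labelled knockout and 3399 and 3163 in wild-type. Of 17 myeloid markers, 16 were tested, 14 were higher and 1 lower, with sums of 6258 and 6138 CPM in the libraries labelled knockout and 577 and 570 CPM in wild-type, and ELANE and CSF3R at 0 reads in wild-type. Of 6 epithelial markers, 3 were tested and all 3 were higher, with sums of 123.5 and 125.5 CPM in the libraries labelled knockout and 13.95 and 11.5 CPM in wild-type, and EPCAM and KRT19 at 0 reads in both groups. B cell markers summed to 10.6 and 9.51 CPM in the libraries labelled knockout, against 16.4 and 14.2 CPM in wild-type, with 2 of 3 tested higher and 1 lower, MS4A1 at 0 reads in both groups and PAX5 at 0 in wild-type. The erythroid and megakaryocyte markers summed to 4.23 and 4.92 CPM in the libraries labelled knockout and 2.70 and 3.27 CPM in wild-type, with HBB at 0 reads in both groups and 0 of 2 tested markers called. The fibroblast markers summed to 11.1 and 11.9 CPM in the libraries labelled knockout and 11.4 and 10.9 CPM in wild-type. Of 2 fibroblast markers tested, 1 was higher and 0 lower, and COL1A2, COL3A1 and DCN had 0 reads in both groups. Mitochondrial rows held 9.49% and 9.33% of counts in the libraries labelled knockout, against 5.31% and 4.92% in wild-type. The part of these shifts in the results below was not tested. In bulk RNA, fewer cells that express a transcript and less of it per cell cannot be told apart.

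Most lincRNAs are transcribed by RNA polymerase II, spliced and polyadenylated like messenger RNAs, but they tend to be less abundant and more restricted to certain cell types. Some act as RNAs in the nucleus, such as MALAT1 in nuclear speckles. Some serve mainly to carry small nucleolar RNAs or microRNAs in their introns or exons, and many start beside the promoter of a protein-coding gene and run away from it on the opposite strand. Scaled per kilobase of the deposited gene length (RPKM, which is CPM per kilobase), the 93 ranged from 0.41 to 67.8, with a median of 3.89, against a median of 6.95 for protein-coding genes with at least 300 reads. Their summed reads ranged from 309 to 8147, with a median of 596, against 2242 for those protein-coding genes. The members had a median deposited gene length of 3047 bases and lay on 24 chromosomes, including 1 member on the Y chromosome. Of the symbols, 31 were clone names such as AP005482.1, 24 were LINC numbers and 38 were other symbols.

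Members rose and fell in nearly equal numbers. By edgeR's quasi-likelihood test, 66 of the 93 (71.0%) passed an adjusted p of 0.05, where 66.0% of all 15294 genes tested did. Of these members, 35 were higher in the libraries labelled knockout (37.6%, against 33.7% of all genes tested) and 31 were lower (33.3%, against 32.3%). Among tested genes of any biotype with at least 300 reads, 73.3% passed, 35.4% higher and 37.9% lower. The members' counts were thus near the background in both directions. Their median log2 fold change was 0.03, against 0.02 over all genes tested. With 1 library left out fewer members passed, as did fewer of all genes tested, and both ranges are given in the closing section.

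Over all 93 members, changes spread more widely upwards than downwards. Log2 fold changes ran from -2.95 to 8.60. Of the 93, 21 were at least 2-fold higher, against 15.6% of all genes tested and 11.6% of those with at least 300 reads. At least 2-fold lower were 13, against 10.7% and 9.15%. Of the 17 members with fewer than 150 reads in wild-type, 16 were at least 2-fold higher. Of the 14 with fewer than 150 in the libraries labelled knockout, 7 were at least 2-fold lower. Among the 62 with at least 150 reads in each group the lean was absent, with 5 at least 2-fold higher and 6 at least 2-fold lower. Among protein-coding genes with 300 to 1000 reads, the depth of 72 of the members, 502 of 2649 were at least 2-fold higher and 314 at least 2-fold lower. In 8 members the wild-type mean lay under 10% of the mean in the libraries labelled knockout, which held for 4.31% of all genes tested and for 4.95% of protein-coding genes with 300 to 1000 reads. The opposite, a mean in the libraries labelled knockout under 10% of wild-type, was found in 0 members and in 0.294% of all genes tested. LINC00665 came nearest to it, at 12.9% of its wild-type mean.

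**Figure D1:**
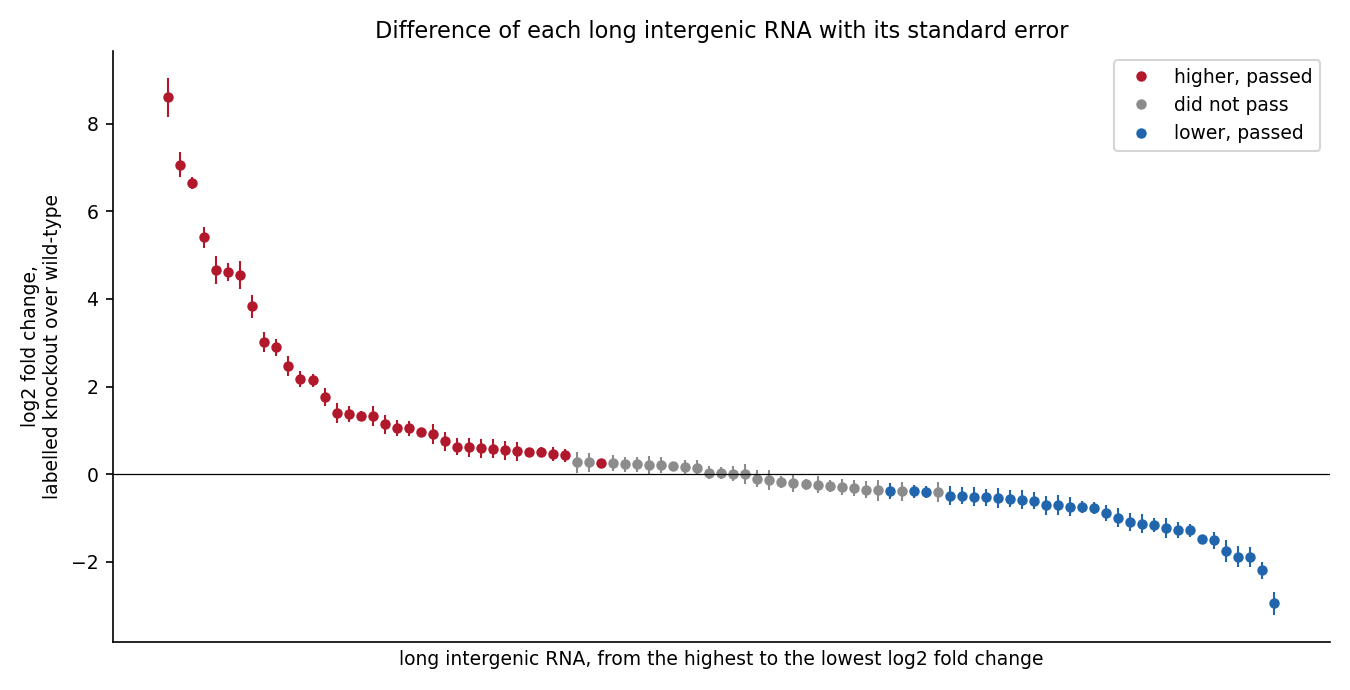
Log2 fold change of each of the 93 long intergenic RNAs, labelled knockout over wild-type, ordered from the highest to the lowest; bars are standard errors from edgeR, and colours show the call at an adjusted p of 0.05. The 35 higher members reach 8.60 at the left, and the 31 lower ones reach -2.95 at the right.

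The way members were chosen shaped these counts, because a transcript with few reads in 1 group could reach 300 only through the other. Of the 31 members with fewer than 150 reads in 1 group, 17 were low in wild-type and 14 in the libraries labelled knockout. Of those 17, 16 were higher and 1 did not pass, and of those 14, 12 were lower and 2 did not pass. The other 62 members had at least 150 reads in each group, and 19 of them were higher, 19 lower and 24 did not pass, with log2 fold changes from -1.51 to 2.14. The members nearest to the limit of 300 reads were AC005332.4 with 309, LINC00467 with 310 and AP001505.1 with 317. The lincRNA rows just under it were LINC02081 with 299, AC110285.2 with 297 and LINC00623 with 285.

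Replicates of a group lay close together. The median member differed 1.11-fold between the libraries labelled knockout and 1.13-fold between the wild-type libraries. A gap of over 2-fold was found in 0 members between the libraries labelled knockout and in 4 members between the wild-type libraries (LINC00847, LINC01602, BX640514.2 and AC015813.1), of which the first 3 had at most 11 reads in any wild-type library. The libraries of the groups did not overlap for 42 members that were higher (41.6% of all genes tested) and 39 that were lower (40.4%), and they overlapped for 12.

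LINC00847 had the largest fitted change of the members. It lies on chromosome 5, plus strand, 180830957 to 180835726 in the coordinates of the deposited table, whose genome build is not given in the sources used here. It had 225 and 208 reads in the libraries labelled knockout, against 1 and 0 reads in wild-type. The groups stood far apart, and with 1 wild-type read the ratio of 489.6 has a 95% exact conditional interval of 87.4 to 19381, which covers counting error only. Its fitted log2 fold change of 8.60 had an SE of 0.453 (adjusted p = 8.30e-29, edgeR). That value became 7.80 without wild-type replicate 2 and 10.8 without wild-type replicate 1, which leaves 0 wild-type reads and so a fitted value that is no bound. It shares 649 bases with HEIH, a transcript on the opposite strand that had 217 and 183 reads in the libraries labelled knockout, against 2 and 3 in wild-type. The use of strand in counting is not stated, so reads in the shared bases cannot be assigned to 1 of the 2 transcripts. HEIH was named here after its values were seen, as were the other overlapping rows below.

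LINC01602 and LINC01694 were also close to 0 in wild-type. LINC01602 (chromosome 8, plus strand, 57855500 to 57984126) had 27.6 and 30.9 CPM in the libraries labelled knockout, against 0.115 and 0.314 CPM in wild-type, from 2 and 5 wild-type reads. All of its wild-type values lay below both others, with a ratio of 139.2 (95% interval 67.3 to 347.3, counting error only). Its log2 fold change of 7.07 (SE 0.293, adjusted p = 3.43e-35, edgeR) became 6.52 without wild-type replicate 1 and 7.88 without wild-type replicate 2. LINC01694 (chromosome 21, plus strand, 45593654 to 45603056) had 137.3 and 133 CPM in the libraries labelled knockout, against 1.61 and 1.07 CPM in wild-type. It was the most read of the strongly raised members. Its reads were 2012 and 1972 in the libraries labelled knockout, against 28 and 17 in wild-type. It differed by 6.64 on the log2 scale (SE 0.140, adjusted p = 7.02e-55, edgeR). The size of that adjusted p depended on the setting, at 8.39e-13 in edgeR with no composition factor and 4.79e-169 by the DESeq2 Wald test. LINC01694 overlapped no other row with reads. Its nearest tested protein-coding gene, PCBP3, lay 40638 bases away and was lower (log2 fold change -0.91, adjusted p = 3.65e-06, edgeR).

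The next rises were a group with 9.91 to 34.4 CPM in the libraries labelled knockout and at most 1.63 CPM in wild-type. C20orf197 (chromosome 20) had 26.1 and 28.0 CPM in the libraries labelled knockout, against 0.689 and 0.565 CPM in wild-type. LINC00926, a transcript best known from B cells, had 34.4 and 33.6 CPM in the libraries labelled knockout, against 1.15 and 1.63 CPM in wild-type. LINC00467 had 10.2 and 9.91 CPM in the libraries labelled knockout, against 0.344 and 0.440 CPM in wild-type, and is 1 of the members nearest to the limit of 300 reads. In each of these 3 the groups did not overlap, and the log2 fold changes were 5.41, 4.61 and 4.66, in the order named. BX640514.2 had 12.3 and 10.6 CPM in the libraries labelled knockout, against 0.287 and 0.691 CPM in wild-type, and AL365181.2 had 11.7 and 14.9 CPM in the libraries labelled knockout, against 0.919 and 0.942 CPM in wild-type. Their log2 fold changes were 4.55 and 3.83. That of BX640514.2 became 4.05 without wild-type replicate 1 and 5.26 without wild-type replicate 2.

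The remaining members of the 12 largest rises had clear wild-type levels. C10orf91 had 15.4 and 15.3 CPM in the libraries labelled knockout, against 1.78 and 2.01 CPM in wild-type. AC073335.2 had 22.8 and 24.2 CPM in the libraries labelled knockout, against 3.39 and 2.89 CPM in wild-type. AC112484.3 had 12.2 and 13.9 CPM in the libraries labelled knockout, against 2.07 and 2.64 CPM in wild-type. OLMALINC, named for its part in the maturation of oligodendrocytes, had 19.7 and 18.0 CPM in the libraries labelled knockout, against 4.54 and 3.77 CPM in wild-type. Both libraries labelled knockout lay above both wild-type libraries in each, and the log2 fold changes ran from 2.18 for OLMALINC to 3.02 for C10orf91. All 12 of the largest rises passed the test in every alternative run, the left-out libraries included.

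**Figure D2:**
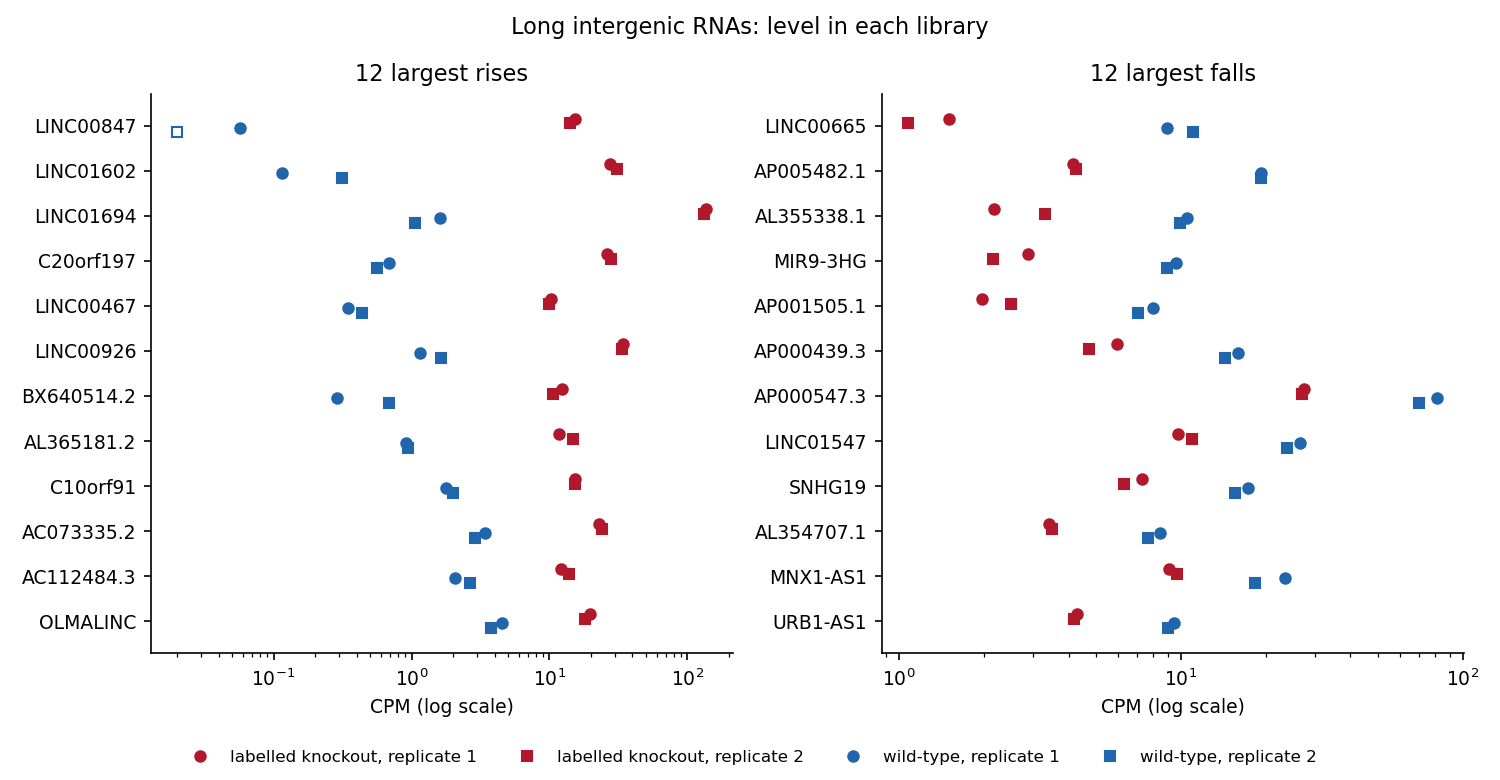
CPM on a log scale in each library for the 12 largest rises and 12 largest falls, with red for the libraries labelled knockout, blue for wild-type, and a hollow square at the left edge for 0 reads. LINC00847, LINC01602 and LINC01694 span the widest gaps, and no groups overlap, by the rule that chose these members.

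The largest fall was in LINC00665 (chromosome 19, minus strand, 36313067 to 36331718). It had 1.50 and 1.08 CPM in the libraries labelled knockout, against 8.96 and 11.1 CPM in wild-type. No library of one group reached the range of the other, and on the log2 scale the difference was -2.95 (SE 0.267, adjusted p = 2.32e-16, edgeR). AP005482.1 (chromosome 18, minus strand, 12739490 to 12776137) had 4.16 and 4.25 CPM in the libraries labelled knockout, against 19.2 and 19.3 CPM in wild-type. Its replicates were almost equal in both groups, and it differed by -2.20 on the log2 scale (SE 0.190, adjusted p = 2.78e-17, edgeR). AL355338.1 on chromosome 13 had 2.18 and 3.30 CPM in the libraries labelled knockout, against 10.5 and 9.92 CPM in wild-type, a log2 fold change of -1.89.

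AP000547.3 (chromosome 22, plus strand, 16601911 to 16615111) had the highest CPM of the falls, though per length SNHG19 stood above it. It had 27.4 and 27.0 CPM in the libraries labelled knockout, against 81.3 and 69.9 CPM in wild-type. Its groups lay far apart, with a log2 fold change of -1.48 (SE 0.098, adjusted p = 5.85e-23, edgeR). It shares 13201 bases with the pseudogene transcript TPTEP1 on the same strand, which had 261 reads in each library labelled knockout and 832 and 690 in wild-type. How reads of both rows were divided is not stated, so the level of each is uncertain.

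Other falls were close to each other in size. AP001505.1 had 1.98 and 2.50 CPM in the libraries labelled knockout, against 7.98 and 7.03 CPM in wild-type. AP000439.3 had 5.94 and 4.72 CPM in the libraries labelled knockout, against 16.0 and 14.4 CPM in wild-type. LINC01547 had 9.76 and 10.9 CPM in the libraries labelled knockout, against 26.5 and 23.7 CPM in wild-type. All libraries labelled knockout lay below all wild-type ones, with log2 fold changes of -1.74, -1.51 and -1.28 in the order named. AL354707.1 had 3.41 and 3.51 CPM in the libraries labelled knockout, against 8.44 and 7.66 CPM in wild-type. It lies on the same strand as KDM4C and overlaps it, and KDM4C did not pass the test (log2 fold change 0.22, adjusted p = 0.159, edgeR). The falls MIR9-3HG, SNHG19, MNX1-AS1 and URB1-AS1 are described with their roles or partners below. Each of the 12 largest falls passed the test in every alternative run on all 4 libraries, and kept its direction with 1 library left out. The falls too were chosen for passing and for their size, so passing again adds little support.

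Hosts of small nucleolar RNAs, which guide the modification of ribosomal and other RNAs, made up 5 members, and they did not move as a group. Of the 5, 3 were higher, 1 was lower and 1 did not pass. EPB41L4A-AS1 had 52.3 and 55.2 CPM in the libraries labelled knockout, against 22.6 and 20.2 CPM in wild-type. SNHG15 had 134.1 and 123.7 CPM in the libraries labelled knockout, against 92.1 and 89.9 CPM in wild-type. SNHG8 had 69.0 and 67.4 CPM in the libraries labelled knockout, against 56.5 and 57.5 CPM in wild-type. In these 3 the libraries labelled knockout were the higher ones without overlap, with log2 fold changes of 1.33 (SE 0.112, adjusted p = 8.95e-18, edgeR), 0.50 (SE 0.077, adjusted p = 2.38e-08) and 0.26 (SE 0.086, adjusted p = 0.00648). The call for SNHG8 was lost without replicate 1 (adjusted p = 0.143) or replicate 2 (adjusted p = 0.0754) of the libraries labelled knockout.

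SNHG19 (chromosome 16, minus strand, 2154797 to 2155358) went the other way. It had 7.30 and 6.27 CPM in the libraries labelled knockout, against 17.3 and 15.6 CPM in wild-type. Both values labelled knockout lay below wild-type, with a log2 fold change of -1.28 (SE 0.181, adjusted p = 3.26e-09, edgeR). Over all 24 tested host transcripts of the list, of any biotype, 9 were higher and 8 lower, with a median log2 fold change of 0.08, where 33.7% of all genes tested were higher and 32.3% lower.

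SNHG4 lies at the MATR3 locus. It spans 139274102 to 139284899 on the plus strand of chromosome 5, within the interval of the second MATR3 row, and overlaps SIL1 on the opposite strand. In all it overlaps 4 rows with reads, 3 of them on the same strand. How reads of such rows were divided is not stated, so its level is uncertain. It had 47.9 and 48.5 CPM in the libraries labelled knockout, against 42.6 and 42.5 CPM in wild-type. The libraries labelled knockout were both slightly higher, but the log2 fold change of 0.18 (SE 0.098) did not pass (adjusted p = 0.0971, edgeR). SIL1, which encodes a nucleotide exchange factor of the endoplasmic reticulum chaperone BiP, had 495 and 513 reads in the libraries labelled knockout and 628 and 592 in wild-type, and did not pass either (log2 fold change -0.10, adjusted p = 0.442, edgeR).

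Both members of the list of nuclear and architectural RNAs were higher. MALAT1, the nuclear speckle RNA (chromosome 11, plus strand, 65497688 to 65506516), had 31.9 and 53.2 CPM in the libraries labelled knockout, against 9.41 and 9.86 CPM in wild-type. The libraries labelled knockout differed 1.67-fold from each other, yet both lay above wild-type, with a log2 fold change of 2.14 (SE 0.154, adjusted p = 2.88e-21, edgeR) that ranged from 1.73 to 2.46 when 1 library was left out. NORAD, a cytoplasmic RNA that binds PUMILIO proteins and is linked to chromosome stability, had 172.3 and 178.6 CPM in the libraries labelled knockout, against 79.5 and 99.7 CPM in wild-type. Its groups did not overlap, at a log2 fold change of 0.97 (SE 0.079, adjusted p = 1.64e-18, edgeR). Of the 10 tested transcripts of the list, of any biotype, 7 were higher and 0 lower, with a median log2 fold change of 0.73. Over all genes tested, 33.7% were higher and 32.3% lower, with a median of 0.02.

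MicroRNA hosts were represented by MIR9-3HG and MIR4435-2HG. MIR9-3HG, the host transcript of a copy of miR-9, had 2.87 and 2.16 CPM in the libraries labelled knockout, against 9.64 and 8.92 CPM in wild-type. All of its values labelled knockout were below wild-type, with a log2 fold change of -1.88 (SE 0.237, adjusted p = 7.87e-11, edgeR). MIR4435-2HG, which overlaps the apoptosis gene BCL2L11 on the opposite strand and is known as a regulator of myeloid cell survival, had 6.48 and 10.3 CPM in the libraries labelled knockout, against 9.13 and 8.92 CPM in wild-type. Its groups overlapped, and it did not pass (log2 fold change -0.10, adjusted p = 0.663, edgeR). Among 15 tested microRNA hosts of any biotype, 1 was higher and 7 lower, with a median log2 fold change of -0.57, beside 33.7% higher and 32.3% lower among all genes tested.

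Transcripts listed as lymphocyte- or myeloid-associated were few and moved in both directions. LINC00528 had 8.19 and 8.16 CPM in the libraries labelled knockout, against 15.9 and 14.3 CPM in wild-type, and was lower (log2 fold change -0.89, adjusted p = 1.01e-05, edgeR). LINC00426 had 7.23 and 5.87 CPM in the libraries labelled knockout, against 4.36 and 4.77 CPM in wild-type, and was higher (log2 fold change 0.52, adjusted p = 0.0374, edgeR). LINC00528 kept its call under each left-out library, whereas that of LINC00426 was lost with any library left out (adjusted p from 0.0515 to 0.350). LINC01215 (0.22) and CYTOR (0.21) had positive log2 fold changes that did not pass. CYTOR and MIR4435-2HG are near-identical over much of their length, so reads can be split between them and both levels are uncertain. The myeloid-associated list held 3 members, LINC00926, CYTOR and MIR4435-2HG. Of these only LINC00926 passed, and it is best known from B cells, so its rise is not a myeloid trait by itself. CYTOR is in both the lymphocyte- and the myeloid-associated list. Over the whole lymphocyte-associated list, 2 of 16 tested transcripts were higher and 8 lower, with a median log2 fold change of -0.70, and over the myeloid-associated list 2 of 8 were higher and 2 lower, with a median of -0.01. The shares among all genes tested were 33.7% higher and 32.3% lower. The summed myeloid and T cell markers given above moved with these libraries.

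In the other lists members were few. NORAD was the only member of the p53-associated list, of whose 3 tested transcripts 1 was higher and 1 lower. RNA components of ribonucleoproteins (1 tested, higher) and the X inactivation centre (2 tested, 1 higher) had 0 members. In all, 14 of the 93 members belonged to any of 8 lists.

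**Figure D3:**
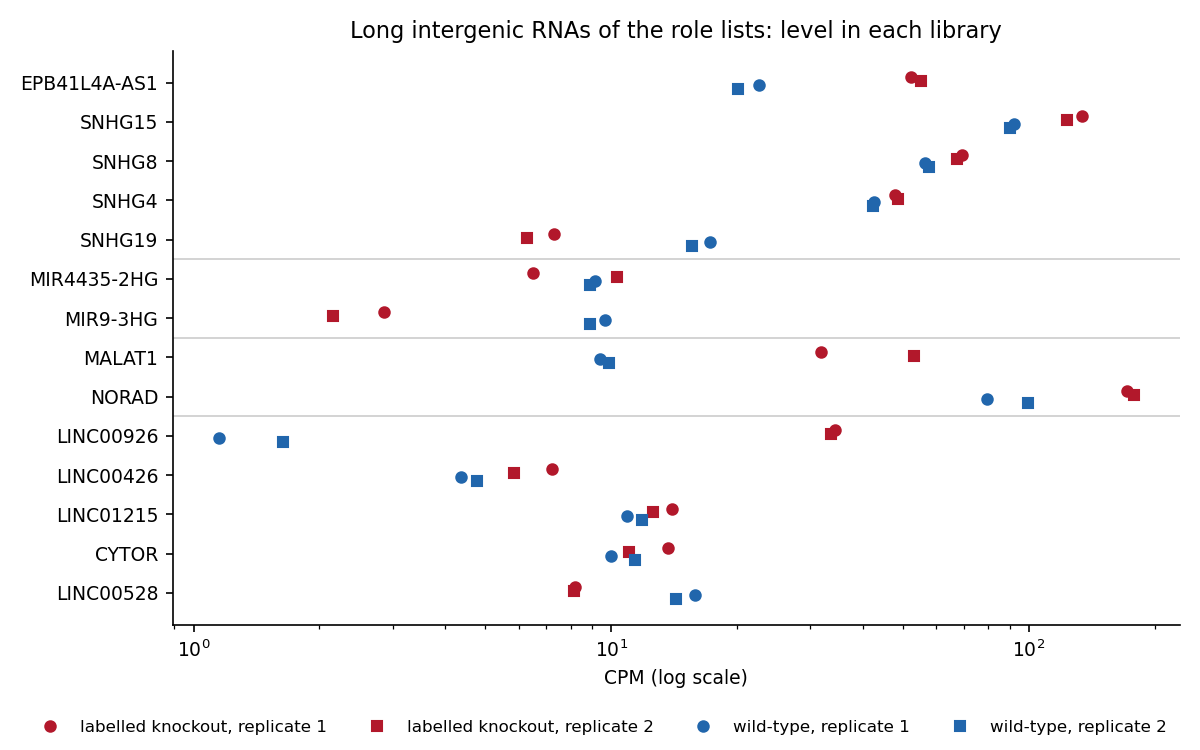
CPM on a log scale in each library for the 14 members of the role lists, with red for the libraries labelled knockout and blue for wild-type. Grey lines separate hosts of small nucleolar RNAs, microRNA hosts, nuclear and architectural RNAs, and lymphocyte- or myeloid-associated transcripts. EPB41L4A-AS1, SNHG15, MALAT1, NORAD and LINC00926 stand to the right in the libraries labelled knockout, SNHG19, MIR9-3HG and LINC00528 to the left.

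Per length, hosts of small nucleolar RNAs led the members. Mean RPKM over the libraries was 67.8 for SNHG8, 33.9 for SNHG19, 30.2 for SNHG15 and 24.8 for NORAD. AC026401.3 stood at 18.7, AC084033.3 at 18.3, AP000547.3 at 16.7 and MNX1-AS1 at 14.5 RPKM. MALAT1, often among the most abundant nuclear RNAs of human cells, ranked only 58th of the 93 with 2.95 RPKM. Of the 8 highest, AC026401.3 and AC084033.3 did not pass the test between the groups. AC026401.3 shares 882 bases with NDE1 on the same strand, and AC084033.3 shares 4648 bases with ATP23 on the opposite strand. How reads in shared bases were assigned is not stated, so the levels of both are uncertain. AC026401.3 had 17.2 and 16.2 CPM in the libraries labelled knockout and 15.3 and 17.2 CPM in wild-type (log2 fold change 0.04, adjusted p = 0.842, edgeR). AC084033.3 had 20.6 and 22.9 CPM in the libraries labelled knockout and 23.8 and 28.5 CPM in wild-type (log2 fold change -0.26, adjusted p = 0.0795, edgeR), and it passed without wild-type replicate 1 (adjusted p = 0.0124). Together the 93 members took 0.157% and 0.163% of counts in the libraries labelled knockout, against 0.124% and 0.128% in wild-type. That share was higher in both libraries labelled knockout. It weighs members by their reads, so it does not show that the 93 rose as a set, of which 35 were higher and 31 lower. Within it, LINC01694 averaged 135.1 CPM in the libraries labelled knockout and 1.34 CPM in wild-type. AP000547.3 averaged 27.2 CPM in the libraries labelled knockout and 75.6 CPM in wild-type.

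The symbols of 16 members name a neighbouring protein-coding gene, as antisense, divergent or overlapping transcripts. In 10 pairs the genes start head to head, and in 12 pairs the starts lie within 1000 bases. The partner was tested in 14 pairs. Both were called in 7, in 6 of them in the same direction. Not all 7 are head to head, since PSMG3-AS1 and FAM111A-DT overlap their partners on the opposite strand and MUC20-OT1 on the same strand. Among protein-coding pairs in which both were called, 67.4% of head-to-head pairs within 5000 bases went the same way. That share was 64.2% for other overlapping pairs on opposite strands and 76.5% for overlapping pairs on the same strand.

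The pairs that were both lower were MNX1-AS1, URB1-AS1 and PSMG3-AS1 with their partners. MNX1-AS1 had 9.07 and 9.71 CPM in the libraries labelled knockout, against 23.4 and 18.3 CPM in wild-type. MNX1, a homeobox gene 154 bases away, stood at 23.8 ± 1.01 CPM in the libraries labelled knockout and 45.1 ± 2.48 CPM in wild-type (SD, n = 2 each). Both were lower, the RNA by a log2 fold change of -1.15 and the gene by -0.92 (adjusted p = 4.08e-09 and 5.98e-11, edgeR). URB1-AS1 had 4.30 and 4.18 CPM in the libraries labelled knockout, against 9.47 and 9.04 CPM in wild-type, a log2 fold change of -1.13. Its partner URB1, a ribosome biogenesis factor, was at -0.40. PSMG3-AS1 had 15.6 and 14.1 CPM in the libraries labelled knockout, against 26.0 and 24.6 CPM in wild-type. Its log2 fold change was -0.77, and PSMG3, a proteasome assembly chaperone that it overlaps, was at -0.38. In these pairs both libraries labelled knockout were the lower ones for the RNA.

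The pairs that were both higher were SCAMP1-AS1, EIF3J-DT and MUC20-OT1 with their partners. SCAMP1-AS1 had 7.71 and 9.51 CPM in the libraries labelled knockout, against 3.62 and 4.21 CPM in wild-type, and SCAMP1, which encodes a carrier protein of secretory membranes and starts 76 bases away, had 28.3 ± 2.01 CPM in the libraries labelled knockout, against 12.3 ± 1.21 CPM in wild-type (SD, n = 2 each). Their log2 fold changes were near each other, at 1.14 and 1.20. EIF3J-DT had 9.89 and 9.17 CPM in the libraries labelled knockout, against 3.10 and 4.15 CPM in wild-type, a log2 fold change of 1.40, and EIF3J, a translation initiation factor subunit, was at 0.46. EIF3J-DT also overlaps CTDSPL2 on the opposite strand, which had 602 and 603 reads in the libraries labelled knockout and 390 and 428 in wild-type. MUC20-OT1, at 0.47, lost its call without replicate 2 labelled knockout (adjusted p = 0.107), and MUC20 itself averaged under 1 CPM in both groups.

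Other pairs diverged. FAM111A-DT had 3.75 and 4.72 CPM in the libraries labelled knockout, against 6.66 and 5.72 CPM in wild-type, and was lower (log2 fold change -0.55, adjusted p = 0.0330, edgeR), while FAM111A was higher (0.41, adjusted p = 0.00195). The call for FAM111A-DT was lost without either library labelled knockout or wild-type replicate 1 (adjusted p from 0.0594 to 0.305). SRP14-AS1 did not pass (0.21, adjusted p = 0.380), while SRP14, a subunit of the signal recognition particle 123 bases away, was lower at 189 ± 11.1 CPM in the libraries labelled knockout, against 324 ± 15.7 CPM in wild-type (SD, n = 2 each; log2 fold change -0.78). FOXD2-AS1 (0.15) and PAXIP1-AS1 (-0.29) did not pass beside lower partners (-0.66 and -0.50). BAIAP2-DT (-0.41), NUP50-DT (0.62) and MAPKAPK5-AS1 (0.43) passed beside partners between -0.02 and 0.05 that did not. Each of these 3 lost its call without replicate 2 labelled knockout (adjusted p from 0.0964 to 0.155). The partners of EPB41L4A-AS1 and FGF14-AS2 had too few reads to be tested.

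Over all members, the nearest tested protein-coding gene was called in the same direction in 29 of the 48 pairs in which both were called (60.4%). The same share was 61.9% for protein-coding genes with at least 300 reads and their own nearest protein-coding neighbours. Within 5000 bases but without overlap, 15 of 18 pairs went the same way (83.3%, against 61.0% for protein-coding genes at that distance). Beyond 5000 bases the count was 10 of 23 (43.5%, against 60.2%), and for overlapping genes 4 of 7 (57.1%, against 65.9%). Spearman's rho between the log2 fold changes was 0.53 over the 31 members within 5000 bases and -0.06 over the 41 farther ones, as a description across genes that share the same 4 libraries. Most of the near pairs were head to head, with 10 of 11 in the same direction, against 279 of 414 (67.4%) for protein-coding genes in that arrangement. The difference between these shares was not tested. The near share ranged from 75.0% to 100% when 1 library was left out, on as few as 11 pairs without replicate 1 labelled knockout. Members that share a neighbour are not independent, as with LINC01547 and AP001505.1, whose nearest gene is FAM207A for both.

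Near pairs outside the named partners included LINC00528 with BID and LINC01547 with FAM207A. BID, a pro-apoptotic BCL2 family gene 2552 bases from LINC00528, averaged 101.3 CPM in the libraries labelled knockout and 250.3 CPM in wild-type (log2 fold change -1.31). FAM207A, 97 bases from LINC01547, averaged 43.9 CPM in the libraries labelled knockout and 82.6 CPM in wild-type (-0.91). Both were lower, as were their lincRNAs. AL365181.2 (3.83) lay 386 bases from BCAN, a brain proteoglycan gene that was higher too (1.28). LINC00926 (4.61) lay 1084 bases from TCF12, an E-protein transcription factor gene that was higher by much less (0.36). LINC00665 (-2.95) lay 2735 bases from ZFP14, which did not pass (0.00, adjusted p = 0.993, edgeR). The 3 near pairs called in opposite directions were LINC01521 (-0.61) with PATZ1 (0.27), AC006449.6 (-0.56) with MLLT6 (0.29) and AC092368.3 (0.75) with SHCBP1 (-0.33).

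Farther pairs often differed in direction. AP000439.3 (-1.51) had CCND1, the cyclin D1 gene, as its nearest tested gene 211466 bases away, and CCND1 was higher, with 24.3 CPM in the libraries labelled knockout and 3.88 CPM in wild-type (log2 fold change 2.65). C20orf197 (5.41) and LINC00467 (4.66) rose beside lower nearest genes, FAM217B at -0.53 and TRAF5 at -0.49. LINC01602 (7.07) moved in the direction of its nearest gene, with FAM110B 10383 bases away at 8.65 CPM in the libraries labelled knockout and 1.52 CPM in wild-type (2.50). CASC15, a transcript of the SOX4 region named after its values were seen, had 7.44 and 4.45 CPM in the libraries labelled knockout, against 12.2 and 13.1 CPM in wild-type. It was lower (-1.09, adjusted p = 1.93e-06, edgeR), and so was SOX4, a transcription factor gene 66153 bases away, at 117 CPM in the libraries labelled knockout, against 216.6 CPM in wild-type (-0.89).

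**Figure D4:**
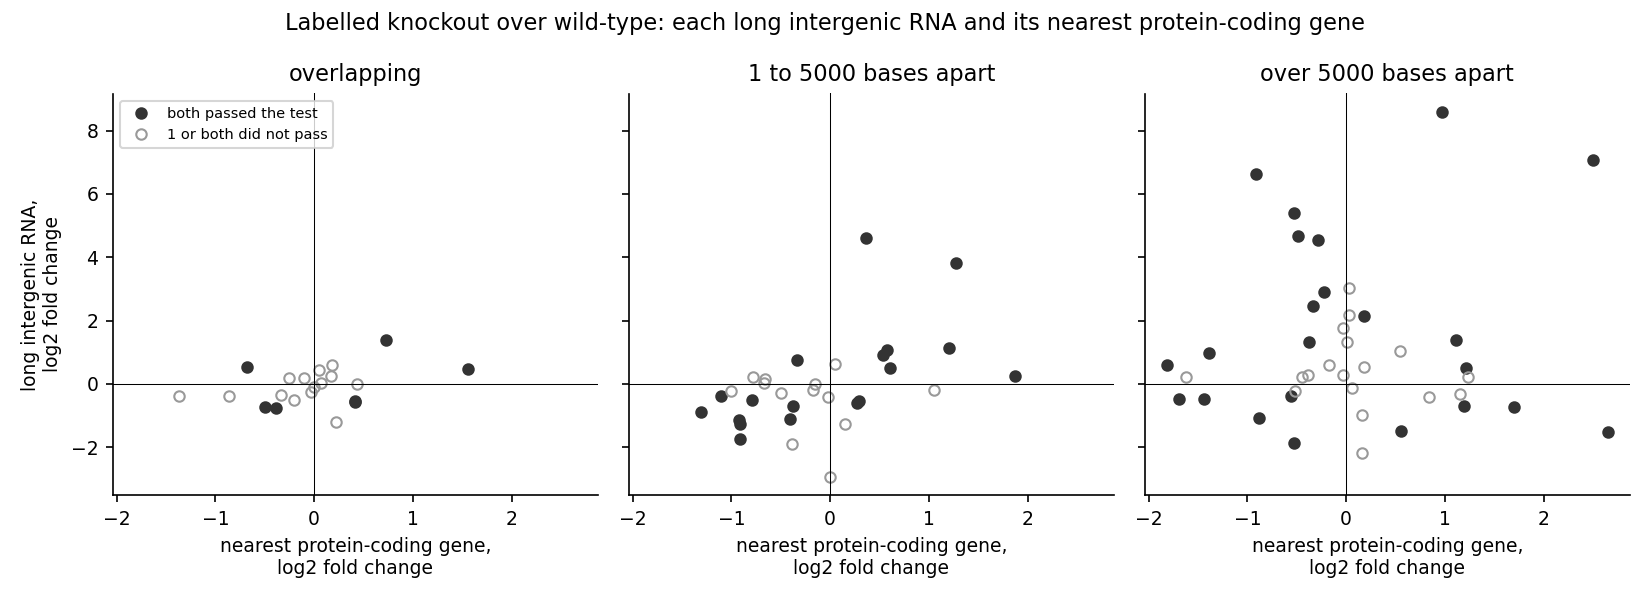
Log2 fold change, labelled knockout over wild-type, of each long intergenic RNA (vertical axis) and of its nearest tested protein-coding gene (horizontal axis), in 3 panels by distance; filled points are pairs in which both passed the test. In the middle panel, 1 to 5000 bases apart, 15 of 18 filled points lie in the lower left or upper right part, against 10 of 23 in the right panel.

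The members lay across the genome with few on any chromosome. Chromosome 7 had 11 members, 3 higher and 4 lower, where 35.8% of its protein-coding genes with at least 300 reads were higher and 39.9% lower. Chromosome 19 had 8, with 4 higher and 1 lower, beside 24.9% and 46.7% of such genes. Chromosome 21 had 5, of which LINC01694 was higher and LINC01679 (-0.99), URB1-AS1, LINC01547 and AP001505.1 were lower. Of its protein-coding genes with at least 300 reads, 24.8% were higher and 57.1% lower, with a median log2 fold change of -0.40. Chromosome 20 had 4, with 3 higher and 0 lower, beside 35.4% higher and 32.3% lower protein-coding genes and a protein-coding median of 0.04. On chromosome 13, where that median was 0.67 with 68.2% of such genes higher and 10.6% lower, 1 of 4 members was higher (LINC00426) and 2 were lower, AL355338.1 and FGF14-AS2. FGF14-AS2 had 3.96 and 4.65 CPM in the libraries labelled knockout, against 7.12 and 6.97 CPM in wild-type. Its groups did not overlap, but without replicate 1 labelled knockout it did not pass (adjusted p = 0.0968).

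**Figure D5:**
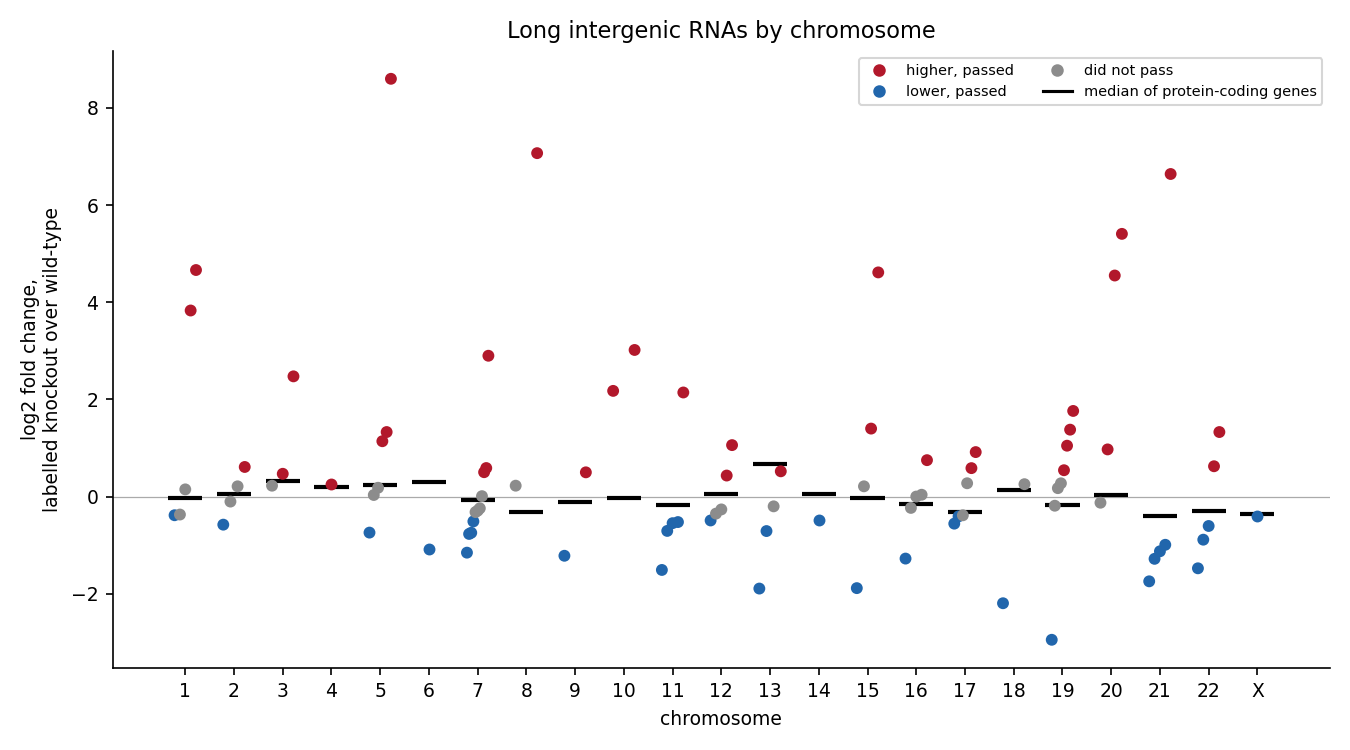
Log2 fold change of the long intergenic RNAs by chromosome, labelled knockout over wild-type, with points coloured by call and a black bar for the median of protein-coding genes with at least 300 reads; the member on the Y chromosome is not plotted. On chromosome 21, 4 of 5 points lie below 0 with the protein-coding median of -0.40, and LINC01694 stands at 6.64.

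Several other members, named after their values were seen, have known contexts. LINC00662 had 13.5 and 13.4 CPM in the libraries labelled knockout, against 4.25 and 3.64 CPM in wild-type, and was higher (log2 fold change 1.76, adjusted p = 4.15e-12, edgeR), while AC006504.5, a member on the opposite strand that shares 478 bases with it, did not pass (0.27). HAGLROS, a transcript of the HOXD cluster, had 7.78 and 7.08 CPM in the libraries labelled knockout, against 4.54 and 5.21 CPM in wild-type (0.61, adjusted p = 0.0111, edgeR). It did not pass without replicate 1 labelled knockout (adjusted p = 0.129) or wild-type replicate 1 (adjusted p = 0.0539). HAGLR on the opposite strand had 69 and 89 reads in the libraries labelled knockout and 16 and 25 in wild-type, and rose by 2.11 on the log2 scale. EBLN3P, derived from an endogenous bornavirus-like sequence, had 37.9 and 39.7 CPM in the libraries labelled knockout, against 26.1 and 28.8 CPM in wild-type, and was higher (0.50, adjusted p = 0.000127, edgeR).

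Some members in this remainder rested on few reads or single libraries. AC015813.1 had 9.76 and 9.78 CPM in the libraries labelled knockout, against 3.22 and 7.22 CPM in wild-type. The wild-type libraries differed 2.25-fold, and its log2 fold change of 0.92 (adjusted p = 0.000225, edgeR) became 0.45 without wild-type replicate 1 (adjusted p = 0.0620) and 1.59 without wild-type replicate 2. BISPR, which neighbours the interferon-induced gene BST2, was at 0.54 (adjusted p = 0.0262, edgeR) and FAM30A at -0.49 (adjusted p = 0.0347). BISPR lost its call without replicate 2 labelled knockout (adjusted p = 0.498) or wild-type replicate 2 (adjusted p = 0.135), and FAM30A without replicate 1 (adjusted p = 0.119) or replicate 2 (adjusted p = 0.201) labelled knockout or wild-type replicate 2 (adjusted p = 0.137). BISPR also overlaps MVB12A on the same strand, which was lower (-0.68). CCDC26, a transcript linked to myeloid leukaemia, did not pass (0.22, adjusted p = 0.249, edgeR), nor did CRNDE (-0.23, adjusted p = 0.0781), which passed with no composition factor (-0.28, adjusted p = 0.0450).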

How the data were processed

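The authors deposited 1 table of raw read counts per gene, which holds all 4 libraries without normalization, per the file headers and rows. The submitters' processing notes name CASAVA 1.8, HISAT2 2.0.5 and featureCounts 1.5.0-p3; the step each tool served, the genome build, strand use and multi-mapped reads were not given in the sources used here. Mouse is the labelled organism, but the rows carry human Ensembl identifiers and Jurkat is a human line.

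Counts were tested in edgeR 4.0.16 (R 4.3.3) with its expression filter (10 counts minimum, 15 in total), TMM scaling (factors 0.978 to 1.04) and its quasi-likelihood test, two-sided, knockout over wild-type, with no covariate. P-values were adjusted over 15294 genes by Benjamini and Hochberg's method, and the threshold was 0.05. CPM are TMM-scaled, and RPKM are those CPM per kilobase of the deposited gene length. Replicates differed by more than sampling noise, with a chi-square per gene of 2.21 for the libraries labelled knockout and 5.83 for wild-type over genes with at least 20 reads. The common biological coefficient of variation was 0.0667. Ratios of reads carry 95% exact conditional intervals. On simulated counts, where 200 genes were changed and 14493 tested, the test recovered 83% of them, with 2.35% of calls false. That setting changed far fewer genes than the 66.0% called in the data, so it does not give the error rate of these calls.

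Members and lists were chosen with earlier results of these data known. Named are the 12 largest rises and falls among members past the threshold whose groups do not overlap, the 8 highest per length, up to 4 per role list, the members nearest to the read limit, those with the widest replicate gaps and those named after a partner gene; not every item this rule takes is reported here. Alternatives were other scalings, filters, tools (DESeq2 1.42.0 and limma 3.58.1) and thresholds, a replicate block, left-out libraries and other rules for members. Same-numbered libraries did not deviate together (r = 0.0239 over 10925 genes with at least 300 reads), so the numbers were not taken as pairs.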

Additional observations from a re-analysis of the deposited data

How the results depend on the processing

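Counts of called members changed with the rule for members, in part because the number of members did. With at least 100 reads in place of 300, 152 of 253 passed, 78 higher and 74 lower, and with at least 1000 reads 15 of 21, 9 higher and 6 lower. The balance of directions turned with the group that had to reach 150 reads. With 150 in the libraries labelled knockout alone, 40 of 85 were higher and 19 lower, with 150 in wild-type alone 19 of 93 were higher and 45 lower, and with 150 in each group 38 passed, 19 in each direction. Without members that overlap another row with reads, 37 passed, 19 higher and 18 lower. A 2-fold minimum left 34, 21 higher and 13 lower, and 26.3% of all genes tested. With no filter on low counts, where every row with any read was tested, 59 members and 33.7% of the genes tested passed. The reason for that drop was not tested. With 1 library left out, 50 to 60 members passed, 28 to 32 higher and 20 to 29 lower, with 50.2% to 63.8% of all genes tested. The DESeq2 Wald test called 51 members and the replicate block 66; the block changed no count of members, and every call shared with an alternative kept its direction. The rise in the members' share of counts, 0.034 percentage points, became 0.0439 over totals without mitochondrial rows and 0.031 to 0.0371 with 1 library left out. The share of same-direction nearest genes was 56% with neighbours of at least 300 reads, 43.5% over 5000 bases, 61.0% without overlapping pairs and 57.1% to 77.8% with 1 library left out, and within 5000 bases, a split added after seeing the data, from 75.0% to 100%. Of 767 values of 59 named members, 33 lost and 2 gained their call, in 14 members, and 0 reversed; the cause was not tested. Depth limits members with few reads in 1 group, whose ratios have wide intervals.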
